A study of Mus musculus with 82 samples.

Results

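P/J and SEA/GnJ are inbred mouse strains that are related by descent. Their members here are the arrays whose background label is P/J or SEA/GnJ, 4 of the 82 arrays of the series, with 2 arrays per strain. They were set against the 34 other strain groups derived mainly from Mus musculus domesticus (70 arrays, 1 mean per group), which include BALB/cByJ and the wild-derived WSB/EiJ. Among these 34, C57BL/6J had 5 arrays, SWR/J had 1 and the rest had 2 each. The groups of other subspecies (JF1/Ms, MSM/Ms, PWD/PHJ, CAST/EiJ) were left out of the comparison. Every group consisted of untreated male mice, 6 weeks old per the labels, with no engineered allele named. The background labels KK.Cg-Ay/J and BTBR T+ tf/J include the allele symbols Ay and tf. The cells were naive CD4 T cells of the spleen, sorted by flow cytometry for CD62L beside CD3 and CD4, with exclusion of cells that bear CD25 or markers of other lineages. This follows the labels and the series title. The series design text says that the animals were obtained at 5 weeks, and it names both these T cells and bone marrow granulocytes as the cells measured. Each array measured a pool of animals given as a biological replicate, so a strain is represented here by 2 pools. P/J and SEA/GnJ are also not independent of each other.

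Naive CD4 T cells circulate through lymphoid organs until their receptor meets antigen. They respond to interferons, which induce a set of antiviral genes that resting cells also express at a basal level. Inbred strains carry fixed alleles, so a gene with a different regulatory or coding sequence can be read at a different level in every mouse of a strain, and strains with common ancestors share long stretches of chromosome. A short probe can also bind less well to a transcript with a sequence difference under it, and the array values alone cannot tell this apart from less RNA.

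Among the genes that mark the sorted cells, Cd3e, which encodes a CD3 chain, read 7241 and 6834 on the P/J arrays and 7191 and 7072 on the SEA/GnJ arrays, within the range of 5481 to 8145 over the 34 groups. Cd4, the coreceptor used in the sort, read 5429 and 5092 in P/J and 4860 and 4858 in SEA/GnJ, within 2786 to 5668. The mean log2 level of 14 B cell markers was 5.55 to 5.62 on the 4 arrays, against 5.59 to 7.16 over the 34 groups. Markers of CD8 T cells, myeloid cells, neutrophils, erythroid cells, platelets and dendritic cells had list means within the range of the 34 or, for dendritic markers on 1 P/J array, below it, and the natural killer list was below its range on 1 P/J array as well. In the fit over arrays described below, 3 of 7 CD8 T cell markers were lower in P/J (Klrd1, Eomes and Ctsw) and 1 in SEA/GnJ (Eomes), and 0 were higher. Over all probe sets 1.79% were lower in P/J and 1.74% in SEA/GnJ. Of 17 myeloid markers, 1 was higher (Itgam) and 1 lower (Cst3) in P/J, and 0 passed in SEA/GnJ. Array medians were 105 to 111 on the 4 arrays and 102 to 142 over the series. Over all probe sets, the 2 P/J arrays correlated at 0.996, the 2 SEA/GnJ arrays at 0.997, and arrays of P/J with those of SEA/GnJ at 0.993 to 0.994, as a description only.

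The first comparison asked which genes P/J and SEA/GnJ share that set them apart from the other strains, with the strain as the replicate (2 strain means against 34). The interferon-induced gene Samd9l, whose product restricts viruses, was at least 71.4-fold lower over the 2 strains. Ifi27l2a, another interferon-induced gene, was 11.0-fold lower. Rcan3, a regulator of calcineurin, and Phykpl, an enzyme that breaks down phosphohydroxylysine, were lower as well. Rpn1, Nckipsd, Tmed3, Snx14, Pde11a and Marveld2 were higher by less than 2-fold. In limma with Benjamini-Hochberg adjustment over 24922 probe sets, 16 probe sets (0.0642%) passed a threshold of 0.05, 11 higher (0.0441%) and 5 lower (0.0201%), and 2621 had an unadjusted p under 0.05.

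Samd9l stood furthest from the other strains of any named gene. Its intensity was 14.9 and 15.6 on the P/J arrays and 15.8 and 17.5 on the SEA/GnJ arrays. The 34 other groups ran from 718 in BTBR T+ tf/J through a median of 1170 to 1779 in SM/J. All 4 arrays lay far below every other group, and BALB/cByJ read 1549 and 1409, in the upper part of the range. On the 4 arrays 3.94% to 5.83% of probe sets were dimmer than Samd9l, so its reading there is near the low end of the arrays. Its measured shared difference, -6.16 ± 0.22 (log2, SE, adjusted p = 1.10e-22), is for that reason a lower bound on the size of the change, and its SE does not cover the low end. None of the 34 groups lay nearer to P/J and SEA/GnJ than to the median. The genes measured next to Samd9l on chromosome 6 differed far less. Hepacam2, Vps50 and Calcr differed by -0.10, 0.22 and 0.01, with adjusted p-values in the fit over arrays of 0.422, 0.0511 and 0.955.

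The reference promoter of Samd9l is given for context, since the gene carries the largest difference. It is the RefSeq sequence of GRCm38.p6 (chr6:3399522-3399821, minus strand, 250 bases before to 50 after the gene's start) and not a sequence of P/J or SEA/GnJ. Capitals mark GAAAC, letters that occur in the binding sites of interferon regulatory factors, searched on both strands with overlaps allowed. This short form was chosen after a longer form of the site had no match. The window held 2 matches, both on the gene's strand. Of 32851 promoter windows of this length, 45.05% held at least 1, so a match is a description and not a site.
Samd9l: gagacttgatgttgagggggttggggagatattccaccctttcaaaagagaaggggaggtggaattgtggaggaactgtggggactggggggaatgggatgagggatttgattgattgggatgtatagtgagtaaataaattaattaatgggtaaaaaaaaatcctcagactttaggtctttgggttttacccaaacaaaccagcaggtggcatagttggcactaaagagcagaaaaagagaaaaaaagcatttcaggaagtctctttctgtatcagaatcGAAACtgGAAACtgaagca

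Ifi27l2a read 85.0 and 78.1 in P/J and 79.1 and 85.6 in SEA/GnJ. The other groups ran from 74.8 in RIIIS/J through a median of 940 to 2030, and BALB/cByJ read 814 and 726. RIIIS/J was at the same low level, and it was the 1 group of the 34 nearer to P/J and SEA/GnJ than to the median. The shared difference was -3.46 ± 0.55 with an adjusted p of 0.00141. With P/J alone set against the 34 groups the adjusted p was 0.0916, and with SEA/GnJ alone 0.215. The neighbouring gene Ifi27 differed the other way, by 0.42 (adjusted p = 0.231 over strain means, 1.33e-06 in the fit over arrays), and Ifi27l2b differed by -0.01 (0.971 and 0.958). Ifi27 and Ifi27l2b are related in sequence to Ifi27l2a, and cross-binding of probes was not tested.

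Rcan3 was lower, at 191 and 173 in P/J and 140 and 146 in SEA/GnJ, against 161 in KK.Cg-Ay/J, a median of 470 and 632 at the top. Its difference was -1.48 (adjusted p = 0.0159). The P/J arrays overlapped the lowest group and the SEA/GnJ arrays did not. KK.Cg-Ay/J, C57BL/10J and DDY/JclSidSeyFrkJ also lay on the low side. Phykpl read 220 and 180 in P/J and 157 and 177 in SEA/GnJ, against 198 in BPL/1J, a median of 355 and 416 at the top, a difference of -0.89 (adjusted p = 0.00956). BPL/1J and the arrays titled DBA2 shared its low level. With P/J or SEA/GnJ alone, the adjusted p was 0.641 and 0.391 for Rcan3 and 0.591 and 0.215 for Phykpl.

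The genes that were higher differed by smaller amounts. Rpn1, a subunit of the oligosaccharyltransferase that attaches sugars to new proteins, read 1042 and 1072 in P/J and 1071 and 1038 in SEA/GnJ, with all 34 groups at 522 to 783 (difference 0.72, adjusted p = 1.42e-04). Nckipsd, an adaptor protein of actin assembly, read 320 and 249 in P/J and 289 and 246 in SEA/GnJ, with the 34 groups at 150 to 219 (0.69, 4.09e-06). For both genes each of the 4 arrays was above every other strain mean. Pde11a, a phosphodiesterase that breaks down cyclic nucleotides, read 430 and 413 in P/J and 445 and 360 in SEA/GnJ, also above all 34 groups (160 to 328; 0.82, 0.0294).

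The remaining named genes that were higher were Snx14, Tmed3 and Marveld2. Snx14, a sorting nexin, read 627 and 667 in P/J and 642 and 598 in SEA/GnJ against 309 to 531 in the 34 groups (0.63, 0.0159). Tmed3, a cargo receptor of the secretory pathway, read 218 and 235 in P/J and 164 and 212 in SEA/GnJ against 115 to 166 (0.58, 0.00369), so that 1 SEA/GnJ array overlapped the other groups. Marveld2, a component of tight junctions, read 118 and 143 in P/J and 137 and 95.4 in SEA/GnJ against 59.1 to 109 (0.74, 0.0297), again with 1 SEA/GnJ array inside the range. Only in P/J and SEA/GnJ was the Marveld2 mean over the median of all values (113), so it was named only through the strains where it was high. At Marveld2, C57BL/6J, C57BLKS/J, C57L/J and the arrays titled C57BR lay nearer to P/J and SEA/GnJ than to the median. So did SWR/J and WSB/EiJ at Snx14, KK.Cg-Ay/J, LGJ and SM/J at Pde11a and CE/J at Nckipsd, but no group at Rpn1 or Tmed3. Marveld2 lost its call without P/J replicate 2 (adjusted p = 0.0967) and without SEA/GnJ replicate 1 (0.205), and Pde11a without SEA/GnJ replicate 1 (0.115). With 1 strain alone set against the 34 groups, Rpn1, Nckipsd and Samd9l kept their calls with either strain, Tmed3 with P/J alone, and Snx14, Pde11a and Marveld2 with neither (adjusted p from 0.342 to 1.00).

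**Figure D1:**
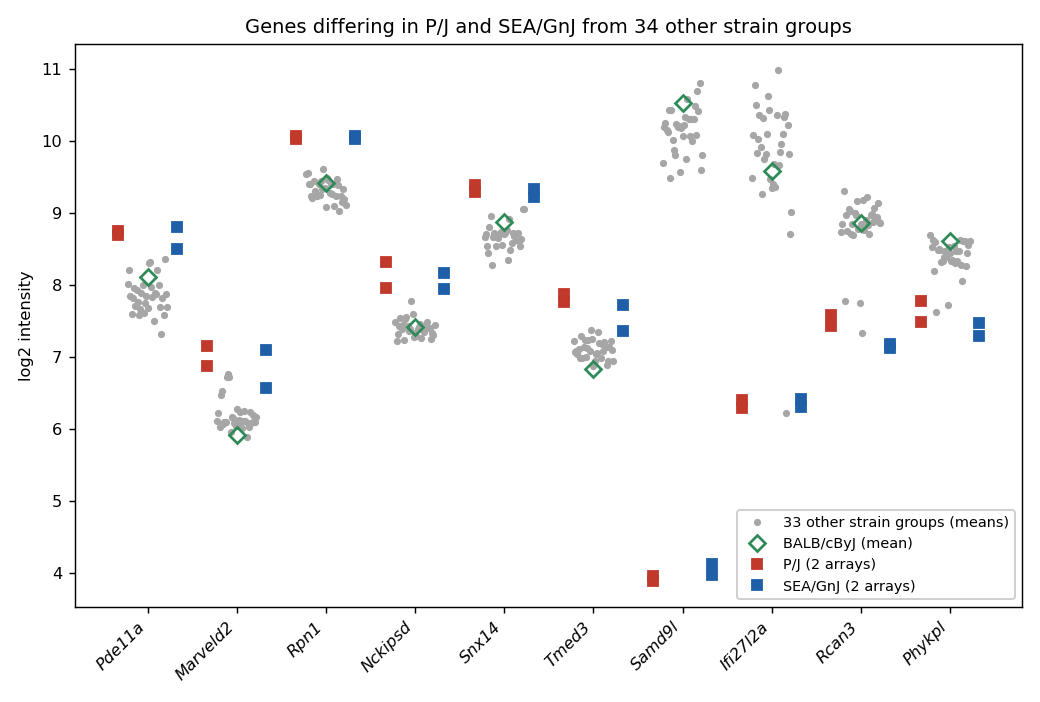
Log2 intensity (vertical axis) of the 10 named genes that differ in P/J and SEA/GnJ. Grey points are the means of 33 other strain groups, spread sideways for visibility, open green diamonds the mean of BALB/cByJ, and red and blue squares the 2 arrays of P/J and of SEA/GnJ. For Samd9l the 4 squares lie near 4 on the log2 axis, far below all other groups, and for Ifi27l2a 1 grey point, RIIIS/J, lies with them.

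BALB/cByJ carried 0 of the 16 shared differences, where carrying means a call in the same direction against the other 33 groups and at least 50% of the shared difference. By the same rule BALB/cByJ carried 6.58% of all probe sets, and it was called against these groups at 7.93%. BALB/cByJ is 1 of the 34 groups of the test, so a difference that it carried was less likely to be among the 16. The 0 of 16 is for that reason a description, and the 6.58% covers probe sets that were not chosen in this way. Of the 16 probe sets, both strain means lay outside the whole range of the 34 groups at 9, and over all probe sets this was so at 303 (1.22%). The named 10 leave out 6 called probe sets. Mctp1, Mir29b-1, Llcfc1 and Zfp980, named here after their values were seen, were below the median of all values in every strain, and Mctp1 rested on 1 P/J array (27.0 and 225 in P/J, 35.5 and 31.9 in SEA/GnJ). The remaining 2 probe sets are paired with several genes and were high in SEA/GnJ alone.

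Mir29b-1 is shown by sequence because the gene beside it, Mir29a, was read on the same arrays and their 3-prime arms share a seed. The mature sequences are RefSeq's for GRCm38.p6, with the seed (bases 2 to 8) in capitals.
miR-29a-3p: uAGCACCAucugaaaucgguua
miR-29b-3p: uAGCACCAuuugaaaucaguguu
The Mir29b-1 probe set read 10.8 and 11.9 in P/J and 9.37 and 10.2 in SEA/GnJ, against 6.83 to 8.94 in the 34 groups, all dim values. Mir29a read 36.8 and 68.5 in P/J, above the 11.5 to 30.2 of the other groups, and 18.4 and 19.6 in SEA/GnJ, within them. P/J exceeded SEA/GnJ at Mir29a by 1.40 (adjusted p = 0.00558 in the fit over arrays). Whether these probe sets read the precursor or the mature form was not tested.

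A second fit used the spread between arrays of 1 strain as its error, and so asks only whether 4 arrays differ from the mean of the others, not whether they differ by more than strains commonly do. In this fit 2462 probe sets (9.88%) were called, of which 62 (0.249%) differed at least 2-fold, 34 higher and 28 lower. The direct contrast of P/J against SEA/GnJ passed at 11 of the 62, so not all of them are alike in both strains. BALB/cByJ carried 23 of the 62 (37.1%), 8 of the higher and 15 of the lower ones. These include probe sets that differ mainly in SEA/GnJ, such as Acadl (2.08 in SEA/GnJ, 0.20 in P/J). By the same rule it carried 6.58% of all probe sets. BALB/cByJ is itself among the 34 groups of the comparison. Some of the 62, such as Trim12a, are low in many strains, and how many of them another strain would carry was not tested. The genes given next were chosen after their values were seen. Among those that all 3 strains carried, Dnah8, a heavy chain of axonemal dynein, read 3769 and 4364 in P/J, 4140 and 3697 in SEA/GnJ and 4544 and 5485 in BALB/cByJ, against a median of 1573. Trim12a, of the Trim5 family of antiviral factors, read 47.8 to 55.9 on the 4 arrays and 51.9 and 43.0 in BALB/cByJ. The median of the other groups was just as low, 50.4, and the highest, MA/MyJ, was at 1617, so the low reading is common to many strains. Coro2a, an actin-binding protein, read 64.3 to 83.3 on the 4 arrays and 87.8 and 106 in BALB/cByJ against a median of 205.

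Among genes that BALB/cByJ did not carry, Nlrp1a, a sensor that forms inflammasomes, read 233 and 199 in P/J and 266 and 265 in SEA/GnJ, against 29.5 and 28.5 in BALB/cByJ and a median of 33.2. The highest of the 34 groups, BPL/1J, was at 238. Kcnma1, a calcium-activated potassium channel, read 217 and 200 in P/J and 353 and 440 in SEA/GnJ, against 20.6 and 20.8 in BALB/cByJ and a median of 23.7, with the highest group at 5523. Clic4, a chloride channel protein, was lower, at 102 to 144 on the 4 arrays against a median of 274. Clic4 lies 3 measured genes from Rcan3 on chromosome 4, and the shared differences were -1.14 and -1.48. The genes between them did not go the same way, with 0.13 at Srrm1 and 0.93 at Ncmap. In the test over strain means Nlrp1a (adjusted p = 0.425), Kcnma1 (0.430) and Clic4 (0.366) did not pass.

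Cxcr2, a chemokine receptor that is better known in neutrophils, read 272 and 248 in P/J and 276 and 223 in SEA/GnJ, against 26.6 and 28.5 in BALB/cByJ and a median of 116, and was higher in both strains against the other groups (1.59 in P/J, 1.52 in SEA/GnJ). It was the 1 neutrophil marker of 14 that passed in either strain. The neutrophil list mean was 5.61 to 5.78 on the 4 arrays and 5.45 to 6.59 over the 34 groups. Of the defining markers, S100a8 read 20.7 to 24.9 on the 4 arrays (median of the others 25.9) and Ngp 27.3 to 30.8 (28.2), so that the other markers of the list did not move with Cxcr2.

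Each strain was then compared with the 34 groups in the fit over arrays. P/J differed at 1144 probe sets (4.59%), 699 higher (2.8%) and 445 lower (1.79%). SEA/GnJ differed at 911 (3.66%), 478 higher (1.92%) and 433 lower (1.74%). Centring each array on its median raised the share of higher calls from 61.1% to 71.5% in P/J and from 52.5% to 64.4% in SEA/GnJ, with fewer calls (969 and 621). Quantile normalization gave 55.2% of 1260 calls in P/J and 54.1% of 1071 in SEA/GnJ. Without P/J replicate 1 the count for P/J was 501 and without replicate 2 it was 278, and without SEA/GnJ replicate 1 or 2 the count for SEA/GnJ was 250 or 338. These comparisons share all their other arrays, so the values of both strains are given side by side. The shares over all probe sets given here are the background for the counts of the gene lists that follow.

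Regulatory T cell genes were lower in SEA/GnJ. Of 17 measured, 9 were lower and 1 higher in SEA/GnJ, and 0 lower and 1 higher in P/J, with medians of -0.49 and -0.13 beside -0.04 and -0.03 over all probe sets. The low level was not particular to SEA/GnJ. The mean log2 level of the list was 7.60 and 7.66 in SEA/GnJ and 8.05 and 7.89 in P/J. AKR/J, the lowest of the 34 groups, was at 7.61, and their median was 8.01. Nrp1, a surface receptor of regulatory T cells made in the thymus, read 69.2 and 68.7 in SEA/GnJ, below the 71.9 to 241 of the other groups, and 112 and 105 in P/J (-0.84 ± 0.13 and -0.19 ± 0.13). Ctla4, an inhibitory receptor, read 96.4 and 105 in SEA/GnJ and 194 and 193 in P/J, against a median of 187 and 95.8 in AKR/J, the lowest group (-0.84 ± 0.14 and 0.10 ± 0.14). Foxp3, the transcription factor that defines these cells, read 353 and 452 in SEA/GnJ and 530 and 451 in P/J, against a median of 579 (-0.51 ± 0.15 and -0.22 ± 0.15). Fewer regulatory T cells among the sorted cells and less RNA per cell cannot be told apart in bulk samples.

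The direct contrast of P/J against SEA/GnJ passed for 1 of these 17 genes, Ctla4 (0.94, adjusted p = 0.00341), and for Nrp1 it did not (0.65, 0.0728). The count of lower genes in SEA/GnJ fell to 2 without SEA/GnJ replicate 1 and to 3 without replicate 2, each of which leaves 1 array of the strain. Nt5e, which encodes the ectoenzyme CD73, was the gene that was higher in both strains, at 490 and 503 in P/J and 434 and 361 in SEA/GnJ against a median of 172. It lies next to Snx14 on chromosome 9.

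**Figure D2:**
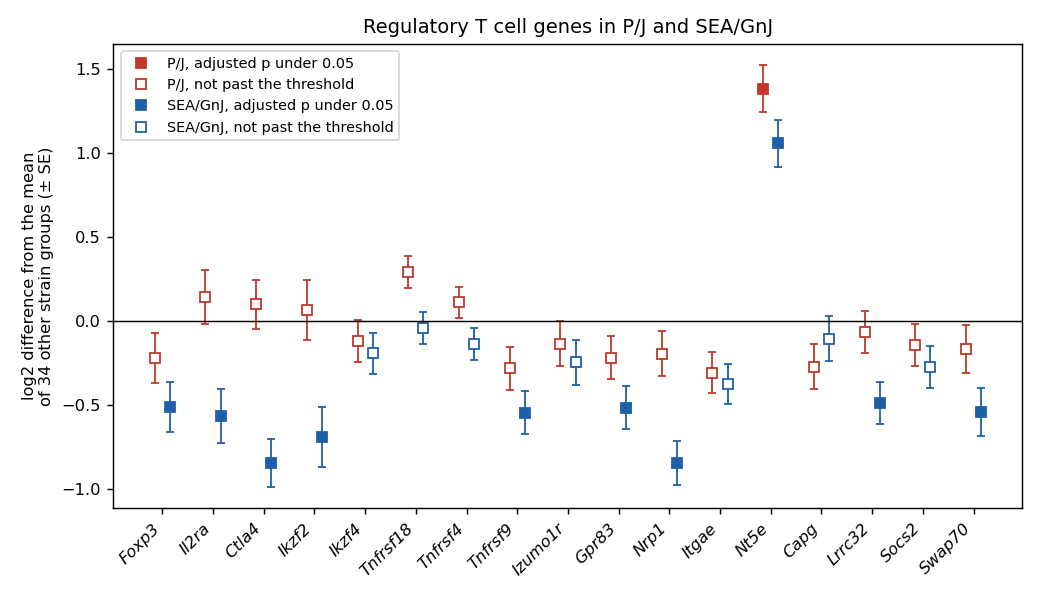
Log2 difference of P/J (red) and SEA/GnJ (blue) from the mean of 34 other strain groups for 17 regulatory T cell genes, with bars of ± 1 SE from the fit over arrays and filled squares for an adjusted p under 0.05. For SEA/GnJ 9 genes lie below 0 with filled squares, and Nt5e lies above 0 in both strains.

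Of 33 genes of activated and memory T cells, 7 were lower and 1 higher in SEA/GnJ, and 2 lower and 3 higher in P/J. The list medians were alike, -0.14 in both strains, and the direct contrast passed at 3 of the 33, all higher in P/J. Median centring gave 4 lower in SEA/GnJ and 0 in P/J, and quantile normalization 7 and 0. Icos, a costimulatory receptor, read 493 and 492 in SEA/GnJ and 907 and 1000 in P/J, against a median of 902, and the direct contrast was 0.95 (adjusted p = 2.35e-05). Lgals1, the lectin galectin-1, read 1033 and 948 in SEA/GnJ and 1616 and 1493 in P/J (0.65, 0.0239). BALB/cByJ was also lower at Icos (-0.81) and Lgals1 (-0.55) against the other groups. Cd44, the adhesion receptor of memory cells, was higher in P/J (0.70, adjusted p = 1.99e-09), at 370 and 353 against a median of 216. BALB/cByJ was higher at Cd44 by a like amount (0.72). Without SEA/GnJ replicate 1 or 2, the count of lower genes in SEA/GnJ was 3 or 2, and without either P/J array the count in P/J was 0.

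Of 23 naive T cell genes, 4 were higher in P/J and 3 in SEA/GnJ and 0 were lower, among them Dapl1 (0.33 in P/J, 0.44 in SEA/GnJ) and the actin cross-linker Actn1 (0.27 and 0.30). Without either array of a strain, that strain's count was 0. Of 27 genes of T cell receptor signalling and 36 ribosomal protein genes, 0 passed in either strain. Over all probe sets 4.59% passed in P/J and 3.66% in SEA/GnJ, so a count of 0 in lists this short is near the share. Thy1, a surface glycoprotein of T cells, was lower in both strains (-0.35 and -0.61).

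Type I interferon response genes moved in both directions. Of 36 measured, 3 were higher and 6 lower in P/J, and 3 higher and 4 lower in SEA/GnJ, with Samd9l and Ifi27l2a among the lower in both. Besides these, P/J was lower at Usp18, which dampens interferon signalling (-0.56), Oasl1 (-0.46), Oas3 (-0.44) and the nucleic acid sensor Zbp1 (-0.37). SEA/GnJ read 0.28, -0.01, 0.12 and 0.17 there, none past the threshold, which is not a test of P/J against SEA/GnJ. The list medians were -0.23 in P/J and 0.20 in SEA/GnJ. Of the 36 genes, the direct contrast passed at 2 higher and 3 lower in P/J. SEA/GnJ was lower at Oasl2 (-1.31), at 88.7 and 94.1 against 177 and 167 in P/J and 94.5 and 92.3 in BALB/cByJ. Xaf1, a proapoptotic interferon-induced gene, was higher in both strains (0.54 and 1.13). Ly6e, a surface protein that limits virus entry, was higher in P/J (0.50) and lower in SEA/GnJ (-0.78), and the direct contrast passed (1.28, adjusted p = 8.96e-09). Without P/J replicate 1 the P/J count was 1 higher and 3 lower, and without replicate 2 it was 1 and 2. The count of lower genes in P/J was 3 with median centring and 10 with quantile normalization.

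Of 27 inflammasome and Toll-like receptor genes, 7 were higher and 3 lower in P/J, and 7 higher and 1 lower in SEA/GnJ. Nlrp1a was higher by 2.01 ± 0.16 in P/J and 2.31 ± 0.16 in SEA/GnJ, and its neighbour Nlrp1b by 0.81 ± 0.11 and 0.92 ± 0.11. Naip2 (0.60 and 0.96) and Naip6 (0.81 and 0.55), sensors of bacterial proteins on chromosome 13, were higher in both. Short probes may not separate these near-identical gene copies. Tlr1, a receptor of bacterial lipopeptides, was lower in P/J (650 and 745) and higher in SEA/GnJ (1689 and 1711), against a median of 1009, and the direct contrast was -1.29 (adjusted p = 4.68e-09). With 1 P/J array left out the P/J count was 3 higher and 0 or 1 lower.

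The direct comparison of P/J with SEA/GnJ asked where the related strains differ, and 301 probe sets (1.21%) passed, 172 higher (0.69%) and 129 lower (0.518%) in P/J. Among those higher in P/J, Gdpd3, a phosphodiesterase of lysolipids, read 812 and 650 in P/J and 81.4 and 72.4 in SEA/GnJ (3.24 ± 0.16, adjusted p = 7.65e-22), with the median of the 34 at 77.5 and RIIIS/J at 6380. Vmn2r96, a vomeronasal receptor gene, read 343 and 411 against 24.3 and 15.7 (4.26 ± 0.36, 4.25e-13). Receptors of this family are near-identical copies, so the transcript behind this probe set is uncertain. Slc15a2, a peptide transporter, read 225 and 519 against 33.4 and 31.2 (3.40 ± 0.37, 2.02e-09), with the P/J arrays far apart but both above SEA/GnJ.

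Pdk1, a kinase that restrains the oxidation of pyruvate in mitochondria, read 1188 and 1415 in P/J and 358 and 299 in SEA/GnJ (1.99 ± 0.17). BALB/cByJ read 317 and 288, and the highest of the 34 groups 1436. Akap11, an anchor of protein kinase A, read 2529 and 1857 in P/J and 817 and 736 in SEA/GnJ, with the 34 groups at 481 to 930, so that P/J exceeded every other group. Dmbt1, Dhdh, Litaf, Mir19b-1 and the T cell receptor segment Trav7d-4 were higher by 1.29 to 2.39. At Mir19b-1 the 34 groups read at most 83.8, below the median of all values (113), and only the P/J mean of these 36 strain means was over it. Mir19b-1 lost its call without P/J replicate 2 (adjusted p = 0.369) and without SEA/GnJ replicate 2 (0.0684).

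Among genes lower in P/J, Tnfrsf26, a receptor of the tumour necrosis factor receptor family, read 83.9 and 86.2 in P/J and 910 and 839 in SEA/GnJ (-3.36 ± 0.12, adjusted p = 1.05e-27), against a median of 982 and a lowest group at 63.9. Trav14-1, a variable segment of the T cell receptor alpha chain, read 57.8 and 91.6 against 790 and 795 (-3.45 ± 0.31, 4.69e-12). Such segments are close copies that may share probes. Atp8b4, a lipid flippase, read 129 and 142 against 1161 and 1020 (-3.01 ± 0.19), and both SEA/GnJ arrays exceeded all 34 groups (46.9 to 850). H2-Q5, a class Ib histocompatibility gene on chromosome 17, read 871 and 911 in P/J, 2526 and 2596 in SEA/GnJ and 2434 and 2344 in BALB/cByJ (-1.52 ± 0.19). Acadl, which oxidises long-chain fatty acids, Atg4c, Raver2, Rnpep, Prelid2 and Tasp1 were lower in P/J, by differences from -1.32 at Tasp1 to -1.87 at Acadl. At Acadl and Rnpep P/J was near the median of the 34 groups, and SEA/GnJ and BALB/cByJ were high.

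**Figure D3:**
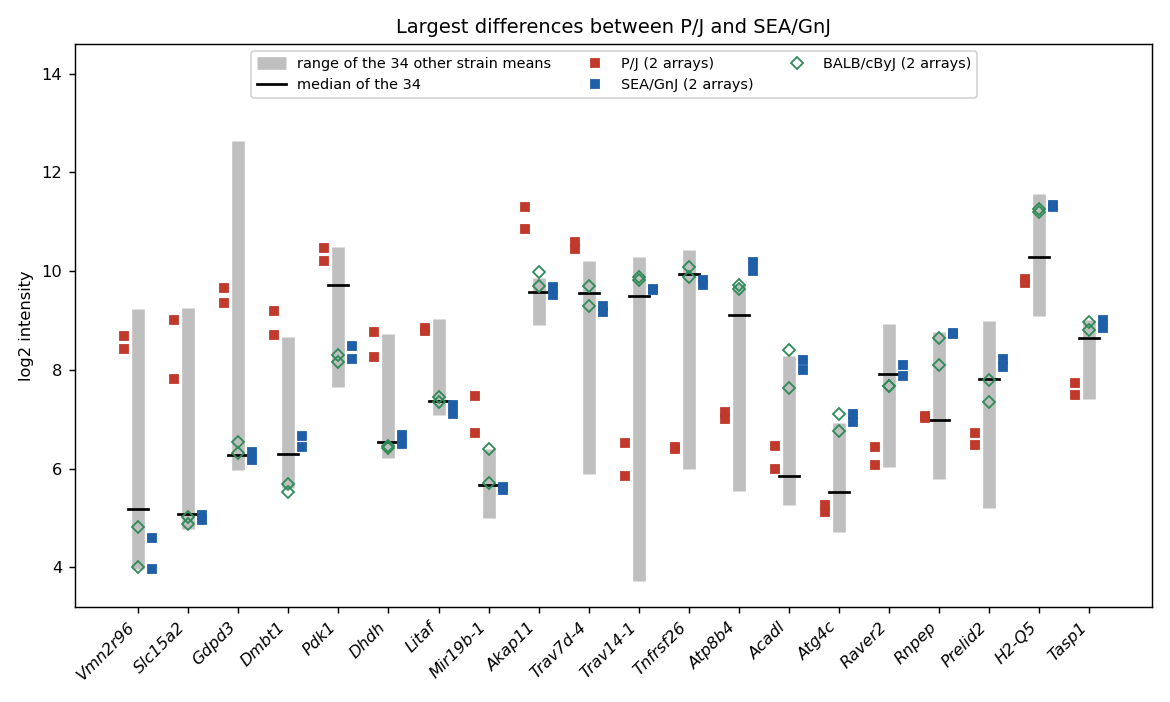
Log2 intensity (vertical axis) of the 20 named genes that differ between P/J and SEA/GnJ. Red and blue squares are the 2 arrays of each strain, green diamonds the 2 arrays of BALB/cByJ, grey bars the range and black lines the median of 34 other strain means. In most of these genes the blue squares lie beside the green diamonds, as for Pdk1 (358 and 299 beside 317 and 288).

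BALB/cByJ was the strain most like both after each other. With each probe set centred on the mean of the 36 strain means, the strain means correlated at 0.48 between P/J and SEA/GnJ, 0.42 between SEA/GnJ and BALB/cByJ, and 0.27 between P/J and BALB/cByJ, over 24922 probe sets that share arrays and centring. The level of SEA/GnJ was read at the 165 probe sets (0.662%) that differed at least 2-fold and past the threshold between P/J and BALB/cByJ. The SEA/GnJ mean took no part in this choice, but the spread between the SEA/GnJ arrays entered the error of the fit. P/J and BALB/cByJ are also the strains most like SEA/GnJ, so that a small distance to one of them partly follows from the choice of these strains. SEA/GnJ was nearer P/J at 80 and nearer BALB/cByJ at 85, so 48.5% were nearer P/J (95% Clopper-Pearson interval 40.6% to 56.4%, which treats probe sets as independent although neighbours share a chromosome). Both SEA/GnJ arrays fell on the same side at 158 of the 165, and probe sets where these arrays lay apart were less likely to be chosen.

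SEA/GnJ was seldom in between. On a scale with BALB/cByJ at 0 and P/J at 1, it lay below 0.25 at 70 probe sets, above 0.75 at 69 and between at 26. Its median distance to the nearer of the strains was 0.17 on the log2 scale, against a median difference of 1.36 between P/J and BALB/cByJ.

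On some chromosomes SEA/GnJ was on 1 side throughout, and on others it switched. A total of 112 genes with 1 symbol could be put in order by GRCm38.p6. All 6 genes on chromosome 3, all 4 on chromosome 8 and all 5 on chromosome 9 were nearer P/J, among them the phosphodiesterase gene Pde5a, Nt5e and Eomes, a transcription factor of cytotoxic and memory cells. Gbp2b on chromosome 3 (position 0.53) and Jaml on chromosome 9 (0.55) were near the middle, with the SEA/GnJ arrays on opposite sides, and at Gbp2b SEA/GnJ also differed from P/J (adjusted p = 2.66e-09). All 4 genes on chromosome 17, with Vmn2r96 and H2-Q5, and both on chromosome 16, Litaf and Slc15a2, were nearer BALB/cByJ. Chromosome 4 switched once, from Ifnz, Atg4c, Raver2 and Tceanc2 nearer BALB/cByJ to 7 genes nearer P/J that include Clic4 and Rcan3. On chromosome 14, Kcnma1 was nearer P/J and the other 4, with Trav14-1 and Akap11, nearer BALB/cByJ. Chromosomes 1, 2 and 7, which hold 12, 13 and 11 of the genes, switched 3 times each, and chromosome 18 switched 2 times over 3 genes.

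Of 92 neighbouring pairs of these genes, 69 (75%) were on the same side in SEA/GnJ. In the 33 other groups the share ran from 52.2% through a median of 57.6% to 70.7%. These shares are descriptions without a test, and the other groups were read at probe sets chosen on P/J and BALB/cByJ, the strains most like SEA/GnJ.

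**Figure D4:**
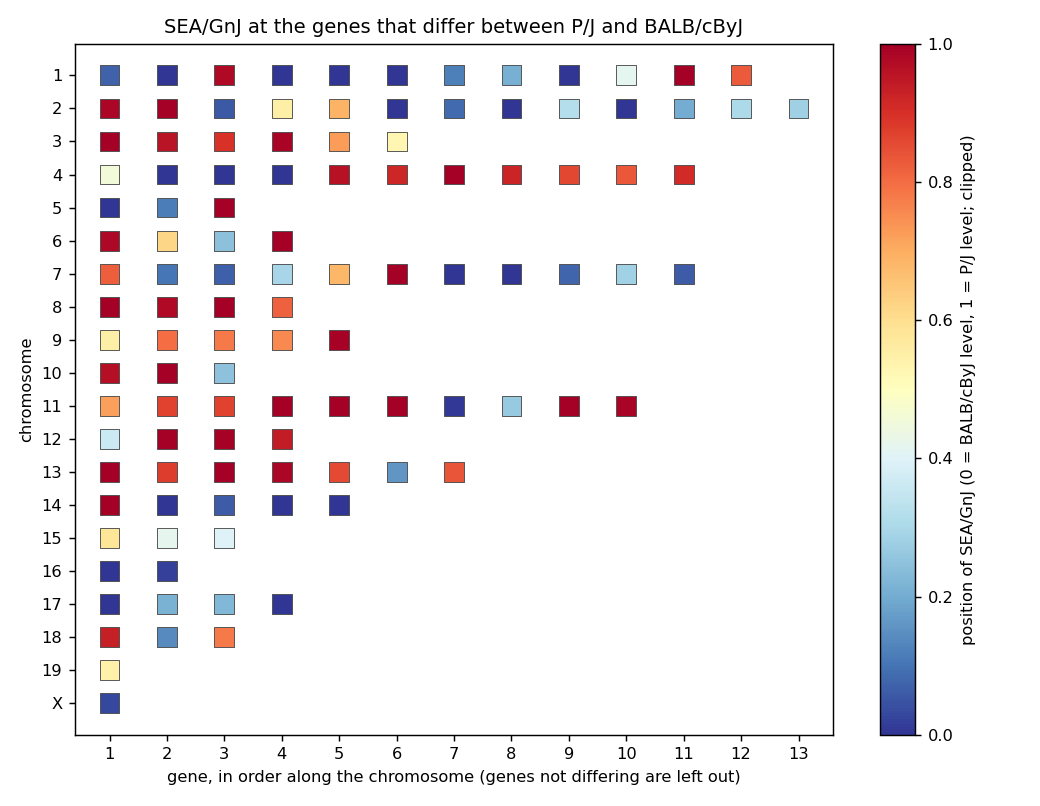
Position of SEA/GnJ between BALB/cByJ (0, dark blue) and P/J (1, dark red) at 112 genes that differ at least 2-fold between these strains, values beyond 0 or 1 shown at the limit. Each row is a chromosome with its genes in order from left to right and equal spacing. Most squares are dark, chromosomes 3, 8 and 9 hold 0 genes nearer BALB/cByJ, and chromosome 4 changes once from blue to red.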

How the data were processed

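The values were linear intensities from Affymetrix ST1.0 arrays, deposited by the authors after normalization, with 1 value for each probe set on each array. RMA and the Affymetrix Power Tools are named per the submitters' processing notes. Their versions and the genome build are not given in the sources used here. Here log2 was taken of these intensities, without another normalization or filter. Only the 21425 of 24922 probe sets paired with 1 symbol were named. GRCm38.p6 served for gene order and neighbours.

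Differences were tested in limma 3.58.1 (R 4.3.3), on 36 strain means, and with 1 coefficient per group over all 82 arrays (42 residual degrees of freedom). P-values of the latter measure the spread between arrays of a strain alone. The Benjamini-Hochberg adjustment covered all probe sets, at a threshold of 0.05. The number of arrays, 2 per strain, limits the precision. Both fits were tested on simulated data in which every strain was drawn as unrelated to the others. The relation between P/J and SEA/GnJ was thus not part of that test.

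Genes were named by size of difference among those past the threshold with an established symbol and at least 1 strain mean over the overall median: up to 12 each way for the shared difference, 10 for P/J against SEA/GnJ and 6 for each strain alone. At most 1 probe set stood for a gene, and members of the 35 gene lists were picked with their values known. The members and lists were chosen with earlier results of these data known. Alternatives were other normalizations, an offset, a filter on dim probe sets, another prior, 1 probe set per symbol, the replicate number as a block, other background strains and arrays left out. Arrays titled C57BR and DBA2, whose background labels name other strains, were kept as groups of their own.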

Additional observations from a re-analysis of the deposited data

Results flagged for a closer look

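A total of 10 named genes differed between P/J and SEA/GnJ while the strains lay on opposite sides of the mean of the 34 other groups, each past the threshold in its own comparison. The direct contrast of P/J against SEA/GnJ (log2) was 4.26 for Vmn2r96, 3.40 for Slc15a2, 3.24 for Gdpd3, 1.99 for Pdk1 and 1.62 for Litaf. It was -3.45 for Trav14-1, -3.01 for Atp8b4, -1.54 for Prelid2, -1.52 for H2-Q5 and -1.32 for Tasp1. In the fit over arrays 42 probe sets were called in opposite directions in the strains. The side of SEA/GnJ against the others was not past the threshold for Slc15a2 without either SEA/GnJ array (adjusted p = 0.385 and 0.372) and for Vmn2r96 without SEA/GnJ replicate 2 (0.321). At several of these genes the other groups themselves fell into a high and a low level, so the mean of the 34 lay between them, as at Gdpd3 with a median of 77.5 and a highest group at 6380.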

How the results depend on the processing

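The strain-mean test rests on 2 related strains, and it was called at 16 probe sets against 2462 with the error taken from arrays. Samd9l, Nckipsd and Rpn1 were called in 17 of 17 settings, Marveld2 in 12 of 16. Median centring gave 1002 calls for BALB/cByJ against the others (1976 otherwise), and 1 probe set per symbol gave 1202 for BALB/cByJ and 602 for SEA/GnJ. With an array or strain left out, counts ran from 7 (SEA/GnJ alone) to 23 for the shared difference, from 278 to 1114 for P/J against the others, from 250 to 883 for SEA/GnJ against the others, from 157 to 187 for P/J against SEA/GnJ and from 376 to 620 for P/J against BALB/cByJ. The replicate block gave 16, 1236, 930 and 314 calls for the shared difference, P/J, SEA/GnJ and their contrast, within 1.5 times of the counts without it. The replicate numbers did not pair the arrays (correlation of deviations -0.12 between P/J and SEA/GnJ). Of 489 values of named genes under other settings, 489 kept direction and call, and of 236 with an array or strain left out, 215 did and 21 lost the call. No named value reversed. Causes were not tested. Dim readings limit what can be said of the size at Samd9l and of Mctp1, Mir29b-1, Llcfc1 and Zfp980.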

Other observations

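The 4 groups from other subspecies, left out of the comparison, were read at the same genes. JF1/Ms had a Samd9l intensity of 12.6, as low as P/J and SEA/GnJ, whereas CAST/EiJ had 1212, PWD/PHJ 1525 and MSM/Ms 802. Ifi27l2a read 74.1 in PWD/PHJ and 70.1 in MSM/Ms, the level of P/J, SEA/GnJ and RIIIS/J, against 1017 in CAST/EiJ and 2522 in JF1/Ms. Rcan3 was low in all 4, at 159 to 217. Rpn1 read 1178 in PWD/PHJ, 1097 in MSM/Ms and 1181 in JF1/Ms, levels like those of P/J and SEA/GnJ, and 618 in CAST/EiJ.

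Of 33 cell cycle genes, 2 were higher and 2 lower in P/J against the other groups, and 3 higher and 1 lower in SEA/GnJ. With median centring 0 were lower in either strain. Over all probe sets 2.8% were higher and 1.79% lower in P/J, and 1.92% and 1.74% in SEA/GnJ. Counts this small say little about the list. Mcm2, a subunit of the replicative helicase, was higher in both (0.71 in P/J, 0.77 in SEA/GnJ). The direct contrast of P/J against SEA/GnJ, which passed at 1.21% of all probe sets, passed at 2 of the 33, both lower in P/J. Top2a, a topoisomerase of dividing cells, was 1 of these (-0.95, adjusted p = 0.0348) and was higher in SEA/GnJ against the other groups (0.93, at 161 and 191 against a median of 90.8). H2-Ob, a chain of the class II modulator H2-O, was higher in P/J against the other groups (1.12), at 601 and 579. BALB/cByJ was higher at H2-Ob as well (1.37). SEA/GnJ read 333 and 342, and the direct contrast did not pass (0.80, adjusted p = 0.0916).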
